A study of Mus musculus with 7 samples.

Results

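The 40 genes described here are a set of cell cycle genes, named by symbol and found once each among the 31253 genes of the feature table. They cover origin licensing and firing (Mcm2 to Mcm7, Cdc6), the replication fork and nucleotide supply (Pcna, Pclaf, Tyms, Rrm1, Rrm2, Tk1), the cyclins with Cdk1 and its Cks subunits, the mitotic kinases and checkpoint, the spindle and kinetochore, and chromatin and tubulin binding. Of the 40, 15 were placed in an S phase list, 23 in a G2/M list and 2 (Cks1b and Stmn1) in neither. Single cells of the peripheral lung were profiled by droplet 3′ RNA sequencing in 7 mice at 8 weeks of age, 1 library a mouse. The 3 Smad4fl/fl mice carried floxed Smad4 alleles and no Cre, and the 4 Smad4iko mice carried the same floxed alleles with creERT2 at the Rosa26 locus, which is active in most cell types. Tamoxifen (75 mg/kg, intraperitoneally) was given 5 times to both groups, first on postnatal day 21 and last on day 26, so the controls differ in Cre and not in tamoxifen.

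A dividing cell licenses its origins with the Mcm helicase, copies its DNA with Pcna at the fork and ribonucleotide reductase supplying nucleotides, and then enters mitosis under Cdk1 and the A and B cyclins. Most genes of the set are transcribed in waves, the S phase genes through E2F factors and the G2/M genes through the DREAM and MuvB complexes, which bind the cell cycle homology region (CHR). Most cells of the adult lung are quiescent, and alveolar macrophages are known to renew themselves locally by division. Smad4 is the shared mediator of TGF-β and BMP signals, and TGF-β restrains the division of many cell types.

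The promoters of 4 members are shown because these genes stand for the patterns below: Top2a and Mki67, which define the cycling cells, Pclaf, which was called higher in Trdc+ T cells, and Hmgb2, which was also high in classes with few cycling cells. Each runs from 250 bases before to 50 bases after the RefSeq start on GRCm38.p6. Capitals mark, on either strand, the CHR (TTTGAA or TTCGAA), the E2F motif (TTTCCCGC, TTTGGCGC, TTTGCCGC or TTTCGCGC) and the CCAAT box. They lie at chr11:99024140-99024439, minus strand; chr7:135716330-135716629, minus strand; chr9:65890073-65890372, plus strand; and chr8:57511593-57511892, plus strand.
Top2a promoter: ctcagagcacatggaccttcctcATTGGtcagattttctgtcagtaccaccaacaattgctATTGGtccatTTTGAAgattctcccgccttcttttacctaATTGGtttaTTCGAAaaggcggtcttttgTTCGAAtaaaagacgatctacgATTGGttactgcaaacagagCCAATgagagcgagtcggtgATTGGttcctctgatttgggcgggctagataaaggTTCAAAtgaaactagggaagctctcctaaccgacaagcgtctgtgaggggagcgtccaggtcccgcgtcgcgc
Mki67 promoter: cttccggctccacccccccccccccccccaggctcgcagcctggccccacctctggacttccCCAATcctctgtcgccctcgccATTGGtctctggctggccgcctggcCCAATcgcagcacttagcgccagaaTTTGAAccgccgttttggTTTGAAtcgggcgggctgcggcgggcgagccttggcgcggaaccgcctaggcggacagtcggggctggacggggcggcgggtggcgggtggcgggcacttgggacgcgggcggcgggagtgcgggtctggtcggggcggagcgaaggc
Pclaf promoter: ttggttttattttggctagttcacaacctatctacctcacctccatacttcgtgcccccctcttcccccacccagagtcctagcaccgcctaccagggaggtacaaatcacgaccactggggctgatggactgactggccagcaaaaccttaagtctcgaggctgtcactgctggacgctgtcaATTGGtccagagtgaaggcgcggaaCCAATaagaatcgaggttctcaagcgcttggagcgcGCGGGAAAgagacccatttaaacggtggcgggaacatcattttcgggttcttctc
Hmgb2 promoter: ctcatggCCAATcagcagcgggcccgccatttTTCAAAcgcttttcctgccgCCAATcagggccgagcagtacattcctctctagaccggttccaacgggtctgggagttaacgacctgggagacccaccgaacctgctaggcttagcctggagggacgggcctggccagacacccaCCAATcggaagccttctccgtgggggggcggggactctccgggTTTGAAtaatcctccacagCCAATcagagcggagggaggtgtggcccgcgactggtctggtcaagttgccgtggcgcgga
Of the 40 members, 34 were matched in the promoter table, taking the first start listed for each gene. A CHR was present in 18 of the 34 (52.9%), against 19.4% of all 27025 promoters, and the E2F motif in 7 (20.6%), against 2.32%. A CCAAT box was present in 28 (82.4%), against 37.9%. The printed Top2a, Mki67 and Hmgb2 windows hold both a CHR and CCAAT boxes, and the Pclaf window holds an E2F match and CCAAT boxes without a CHR. These matches describe the letters of the windows and say nothing of binding.

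The 7 libraries held 46449235 to 66557262 UMIs (unique transcript molecules counted), and 49711 cells were kept. With 6 markers for each of 27 classes, 43547 cells were gated and 12.4% were not. Of the gated cells, 1435 had the minimum of 3 markers. Any 2 libraries shared at most 0.377% of the barcodes of the smaller one. Smad4 itself was lower in the Smad4iko libraries: summed over all kept cells it stood at 78.4, 86.2 and 85.9 CPM (counts scaled to a common library total) in Smad4fl/fl 1 to 3 and at 61.0, 54.3, 41.3 and 55.9 CPM in Smad4iko 1 to 4. The groups did not overlap, but the edgeR adjusted p over library sums was 0.636 (log2 fold change -0.51 ± 0.13 SE). Which exon was deleted is not stated in the labels, so the 3′ reads give only a partial check of the deletion.

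Cycling cells were rare and lay mostly in a few immune classes. A cell was called cycling with at least 3 UMIs over Mki67 (a protein of the mitotic chromosome surface), Top2a (topoisomerase II), Birc5 (survivin, of the chromosomal passenger complex) and Ube2c (the ubiquitin conjugase of the anaphase-promoting complex). By this measure 1254 of 49711 kept cells were cycling (2.52%, exact binomial interval 2.39% to 2.66%, which covers counting error only). Just inside the threshold, 192 cells had 3 such UMIs, just outside it 522 had 2, and 710 cells had 10 or more. Alveolar macrophages held 402 of the cycling cells, T cells 245, NK cells 77 and type 1 conventional dendritic cells 96, and 258 were ungated.

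In alveolar macrophages the share of cycling cells ran from 5.05% to 8.28% over the 7 mice. The share was 8.02%, 8.01% and 6.63% in Smad4fl/fl 1 to 3 and 6.70%, 5.05%, 7.23% and 8.28% in Smad4iko 1 to 4. These ranges overlapped, and the difference of means of -0.74 percentage points gave p = 0.543 by exact permutation of the genotype labels over mice (two-sided). The smallest p that this design allows is 0.0286 with all 7 libraries, and it is larger where libraries are left out. The difference was -0.22 with cells thinned to 2000 UMIs, -0.149 without Smad4iko 2 and -1.67 without Smad4iko 3 and 4, all with exact permutation p of 0.300 or above. NK cells ran from 0.980% to 2.87%. T cells stood at 1.39%, 1.14% and 1.53% in the controls and at 2.90%, 1.43%, 2.66% and 2.02% in Smad4iko, a difference of 0.90 percentage points (exact permutation p = 0.0857, 0.343 adjusted over the 8 large classes, those in which each library had 30 cells or more). The lowest Smad4iko library lay inside the control range. Thinned to 2000 UMIs, the T cell difference was 0.26 percentage points (exact permutation p = 0.343).

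Cells that hardly cycled set the background. Car4-high capillary endothelium had 0 of 666 cells, and plasmacytoid dendritic cells 0 of 236. Neutrophils, which do not divide once mature, had 15 of 7350 (0.204%) at a median depth of 3080 UMIs, and 80.0% of those 15 passed on a single gene. B cells had 12 of 4461 (0.269%), but 8 of those 12 passed on at least 2 genes. Their cycling cells held a median of 34.5 UMIs of the other G2/M genes, against 10 in those of neutrophils. A share near these levels does not by itself tell division from background.

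Dendritic cells had the highest unthinned share among the large classes, and much of it rested on 1 gene. Smaller classes stood higher in the pooled libraries. Plasma cells had 29 of 83 (34.9%), with 32.5% on at least 2 genes and 12.2% when thinned to 2000 UMIs. Erythroid cells had 7 of 17. Type 1 conventional dendritic cells, which cross-present antigen, ran from 10.0% to 35.4% over the libraries. Of their cycling cells, 46.9% passed on a single gene, and Mki67 gave 50.5% of their gate UMIs, against 25.3% in alveolar macrophages. Requiring at least 2 of the 4 genes, their pooled share fell from 25.3% to 13.5%, while that of alveolar macrophages moved from 7.02% to 6.33%. In mature dendritic cells 22 of 90 passed, with 90.8% of their gate UMIs from Mki67, and 4.44% passed on at least 2 genes. Median depth also differed, at 16932 UMIs in type 1 dendritic cells and 11928 in alveolar macrophages. With each cell thinned to 2000 UMIs, the mean shares over libraries were 4.70% ± 1.86 (SD, n = 7) and 3.86% ± 1.37, higher in type 1 dendritic cells in 5 of 7 libraries (exact sign-flip permutation p = 0.313, adjusted 0.613). The next step down, from alveolar macrophages to NK cells at 1.26% ± 0.66, held in 7 of 7 libraries and gave p = 0.0156, the smallest 7 libraries allow, with an adjusted exact permutation p of 0.109. No neighbouring pair of classes in the order passed the adjusted threshold of 0.05.

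**Figure D1:**
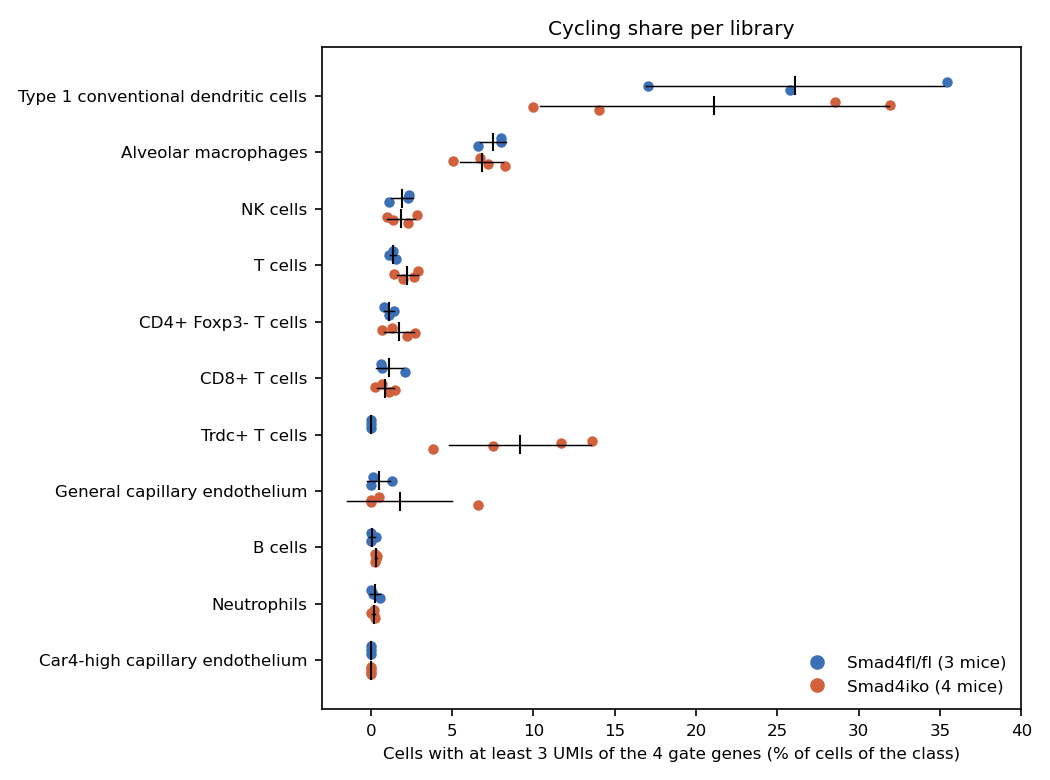
Share of cycling cells (x axis, percent of the cells of the class) in each library, by class (rows), with Smad4fl/fl in blue and Smad4iko in orange. Points are libraries, vertical ticks means and horizontal lines 1 SD; Trdc+ T cells lie at 0 in the 3 controls and between 3.85% and 13.6% in the 4 Smad4iko libraries.

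In alveolar macrophages the genes that did not enter the gate followed those that did. All 36 of them were higher in the cycling cells than in the other macrophages in 7 of 7 libraries, on cells thinned to 2000 UMIs; the gate chose the cells, so this is a description. The replication genes separated cells to different degrees. Pclaf, a Pcna-binding clamp factor, averaged 520 ± 135 CPM (SD, n = 7) in the 398 cycling and 2.59 ± 1.37 CPM in the 5260 other cells. Rrm2, the cell-cycle-limited subunit of ribonucleotide reductase, averaged 421 ± 152 and 2.31 ± 1.24 CPM. Pcna itself was present in both, at 678 ± 126 and 203 ± 15.3 CPM, and so was Mcm3, at 132 ± 37.2 and 43.3 ± 11.5 CPM. Over the S list the median ratio was 8.06 and over the 19 G2/M genes outside the gate it was 40.8, among the 17 with more than 3 UMIs in the other cells. The gate genes are all in the G2/M list, so the gate itself favours a higher ratio for that list. Bub1b, a spindle checkpoint kinase, differed by a ratio of 3.60, while its relative Bub1 had 2 UMIs in all 5260 other cells.

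**Figure D2:**
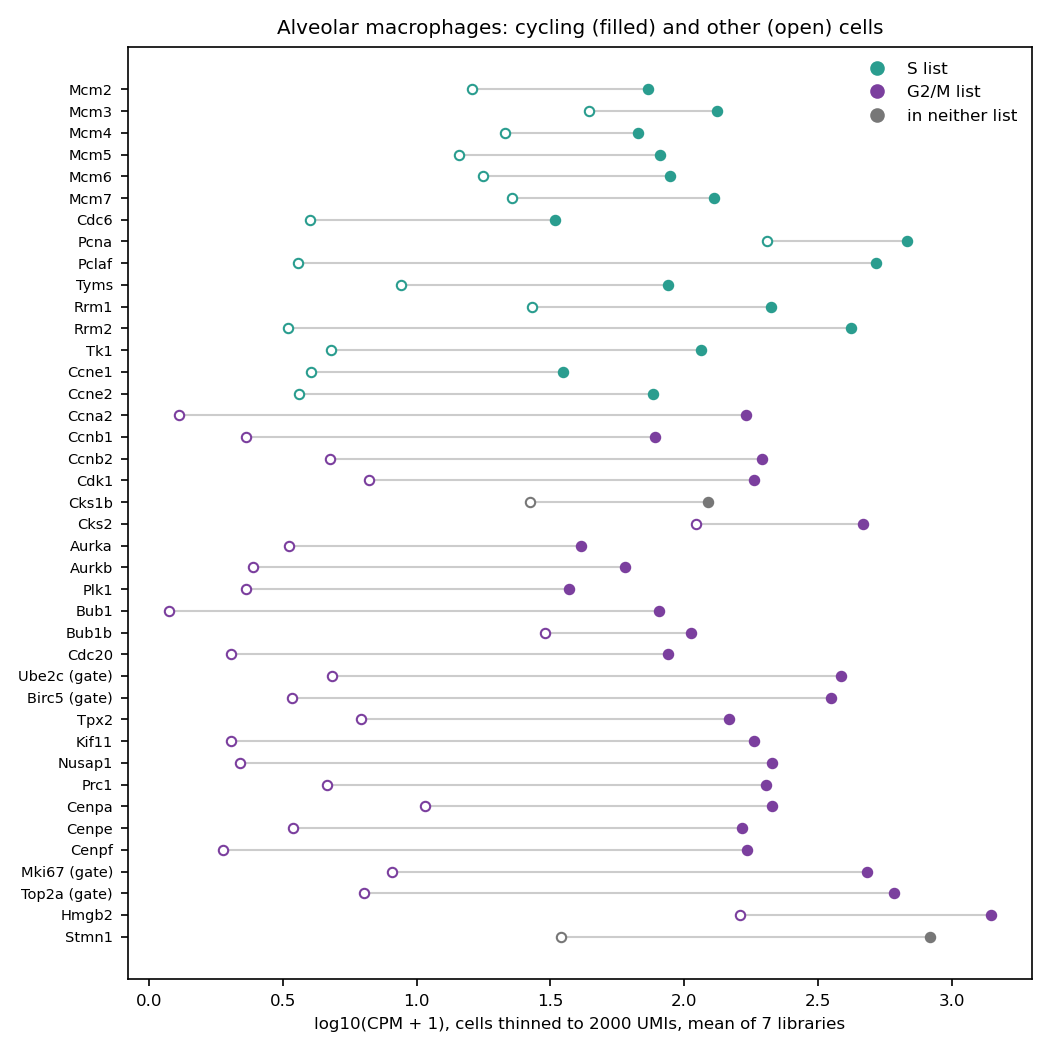
Mean level of each member (x axis, log10 of CPM + 1, cells thinned to 2000 UMIs, mean of 7 libraries) in cycling (filled) and other (open) alveolar macrophages, coloured by phase list. Pclaf and Rrm2 are at 2.59 and 2.31 CPM in the other cells, while Pcna, Cks2 and Hmgb2 stay above 100 CPM.

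The leading members of each role in alveolar macrophages overlapped between the genotypes over the 7 libraries. Pcna stood at 245, 290 and 242 CPM in the controls and at 256, 235, 246 and 273 CPM in Smad4iko. Top2a stood at 78.5, 72.8 and 68.3 CPM against 56.4, 43.8, 105 and 120 CPM. Smad4iko 1 and 2 lay below all controls for Top2a and Smad4iko 3 and 4 above them. The same arrangement held for Rrm2, at 36.0, 50.4 and 44.8 CPM against 32.1, 20.2, 61.9 and 71.9 CPM. Smad4iko 3 and 4 stand apart from Smad4iko 1 and 2 in these values and belong to the same genotype. What sets them apart cannot be told apart from differences between mice. Mki67 stood at 77.5, 62.3 and 50.1 CPM against 45.9, 42.4, 69.6 and 80.4 CPM. Birc5 stood at 68.4, 50.1 and 37.4 CPM against 32.9, 23.5, 65.1 and 60.3 CPM. Ube2c stood at 89.3, 48.4 and 36.4 CPM against 32.9, 22.9, 66.7 and 49.5 CPM, and both genes were highest in Smad4fl/fl 1. Pclaf stood at 47.9, 79.5 and 51.8 CPM against 40.3, 28.2, 83.1 and 102 CPM, with Smad4iko 1 and 2 again the lowest.

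What the edgeR fit gave in alveolar macrophages depended on Smad4iko 3 and 4. Over the 7 libraries 0 of 40 members were lower at an unadjusted p under 0.05, where 2.92% of all genes were, and the median log2 fold change of the members was -0.07. With a covariate for Smad4iko 3 and 4, which leaves Smad4iko 1 and 2 to be compared with the controls, 28 of 40 were lower at that level and 0 higher, where 5.42% of genes were lower, and the median log2 fold change was -0.57, against -0.0072 over all genes. Without those 2 libraries 27 were lower, against 4.9% of genes. Members rise together in cycling cells, so neither count is one of independent results. Setting aside the Smad4iko libraries in which members such as Top2a and Rrm2 were high favours lower members, so both counts are a description. The cycling share itself overlapped, at 6.70% in Smad4iko 1 and 6.63% in Smad4fl/fl 3, with an exact permutation p of 0.300 without Smad4iko 3 and 4. Kif11, a spindle motor, had the smallest p with the covariate (log2 fold change -0.82, edgeR adjusted p = 0.117), and no member passed the adjusted threshold in either fit.

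The other roles gave the same overlap of groups. Of the licensing genes, Mcm3 stood at 43.1, 53.8 and 46.1 CPM against 43.9, 45.4, 62.2 and 71.5 CPM. Mcm7, another helicase subunit, stood at 31.9, 32.6 and 27.3 CPM against 24.9, 23.3, 41.8 and 52.7 CPM. The E cyclins, which drive entry into S phase, were low: Ccne2 stood at 6.78, 12.4 and 12.6 CPM against 6.94, 5.65, 11.8 and 18.1 CPM and Ccne1 at 4.37, 7.35 and 4.38 CPM against 4.82, 4.73, 6.47 and 8.85 CPM. The Cdk-binding subunits were higher. Cks2 stood at 135, 194 and 134 CPM against 126, 201, 152 and 125 CPM and Cks1b at 41.9, 47.2 and 39.4 CPM against 34.1, 31.4, 50.9 and 51.6 CPM. Among the spindle and kinetochore genes Cenpa stood at 46.5, 29.4 and 25.2 CPM against 23.2, 20.02, 41.97 and 36.8 CPM and Prc1 at 35.2, 34.2 and 22.5 CPM against 21.4, 17.1, 40.6 and 43.3 CPM. Hmgb2 and Stmn1 led the chromatin and tubulin genes. Hmgb2 stood at 272, 365 and 255 CPM against 240.4, 262, 427 and 439.6 CPM and Stmn1 at 119.6, 183 and 126 CPM against 69.2, 92.9, 177 and 105 CPM.

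The levels of some members did not follow the cycling share. Cks2, a small Cdk-binding subunit, reached 2458 CPM in basophils and mast cells, of which 0 of 61 were cycling, and 428 CPM in non-classical monocytes. Hmgb2, a DNA-bending chromatin protein, stood at 1812 CPM in neutrophils (0.204% cycling) and 1600 CPM in basophils and mast cells. Stmn1 (stathmin), which destabilises microtubules, was highest in general capillary endothelium at 461 CPM. Cenpa, the centromeric histone H3 variant, was highest in T cells at 116 CPM and B cells at 112 CPM. Cenpa also split the libraries: in B cells it stood at 146, 111 and 147 CPM in the controls, 186 and 150 CPM in Smad4iko 1 and 2, and 50.7 and 42.5 CPM in Smad4iko 3 and 4. In T cells the last 2 libraries were again the lowest, at 70.4 and 56.3 CPM against 105 CPM or more. At the other end, the levels of Mki67 and Birc5 followed the cycling share most closely over 24 classes (rank correlations 0.94 and 0.89, a description over classes from the same libraries in which both genes also define the share). The lowest was that of Cks2, at 0.32.

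**Figure D3:**
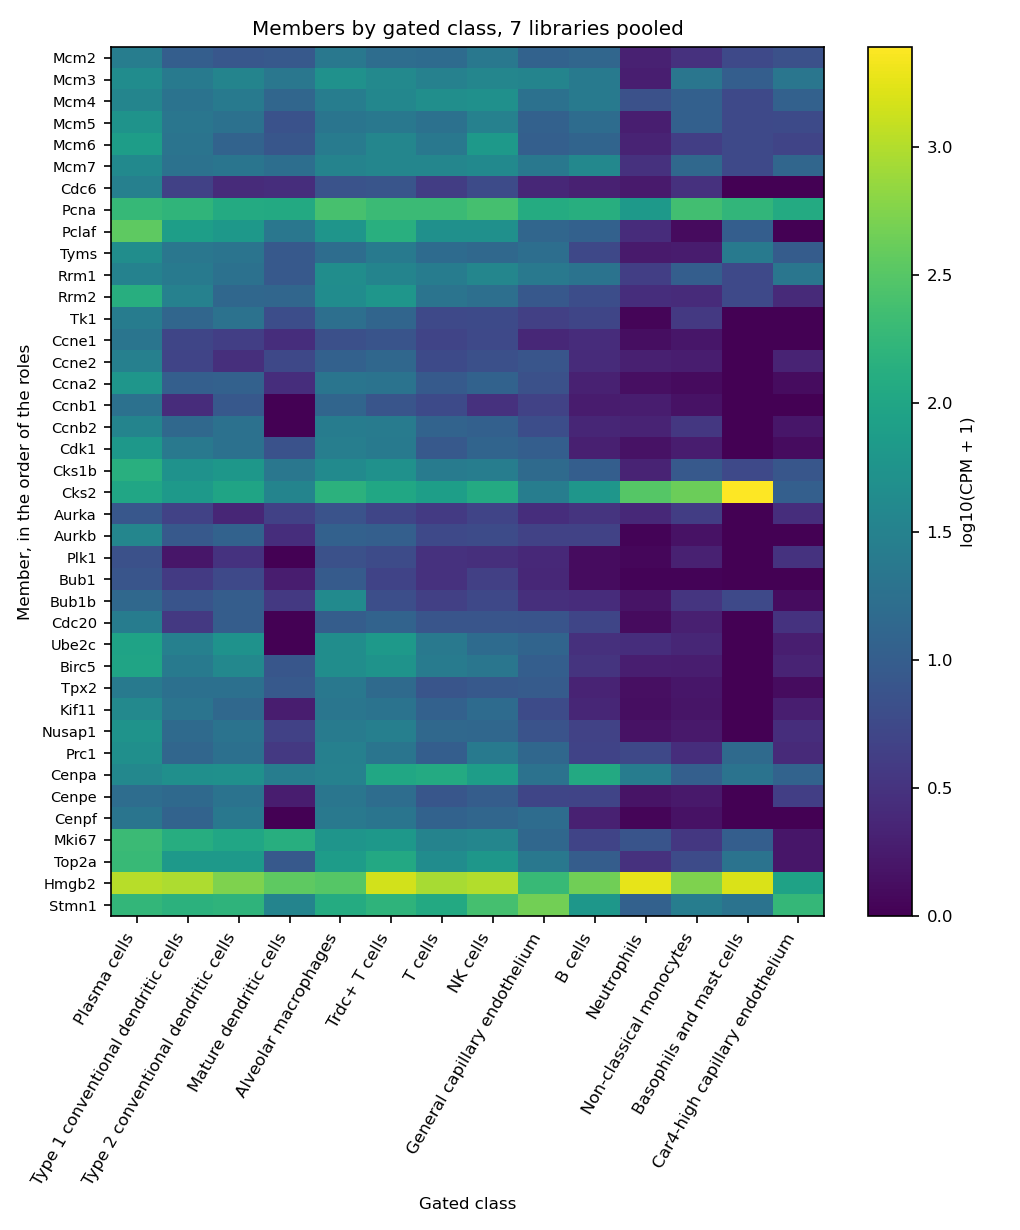
Level of each member (rows, in the order of the roles) in 14 classes (columns), as log10 of CPM + 1 with 7 libraries pooled. Cks2 is brightest in basophils and mast cells and Hmgb2 in neutrophils, and mature dendritic cells show Mki67 with little of the other G2/M genes.

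Between the genotypes, no member passed the test in any of the 8 large classes. In edgeR's quasi-likelihood test with Benjamini-Hochberg adjustment over all genes of a class, 0 of 189 tested pairs of member and class had an adjusted p under 0.05, where 0.0463% of all 69051 tested pairs of gene and class did. DESeq2 also called 0. At an unadjusted p under 0.05, 11 pairs were higher and 4 lower in Smad4iko, 15 of 189, against a background of 7.25% of all pairs. In T cells, 8 of 40 members were higher at that unadjusted level and 0 lower, against 6.47% of all genes higher; these were Tk1, Tyms, Cdk1, Pclaf, Cks1b, Rrm2, Top2a and Prc1. That count moved with single libraries, to 1 without Smad4fl/fl 1, 2 without Smad4iko 3, 5 without Smad4fl/fl 3, Smad4iko 1 or Smad4iko 4 and 16 without Smad4iko 2, and it was 2 with the covariate for Smad4iko 3 and 4. Tk1 (thymidine kinase) stood at 2.12, 2.47 and 3.60 CPM in control T cells and at 6.53, 4.15, 7.45 and 4.64 CPM in Smad4iko, groups that did not overlap (log2 fold change 1.11 ± 0.31 SE, edgeR adjusted p = 0.299). Tyms (thymidylate synthase) had an edgeR adjusted p of 0.451 there, at 8.08, 12.3 and 13.4 CPM against 18.7, 18.7, 13.2 and 13.9 CPM.

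Elsewhere the smallest p belonged to Hmgb2 in Car4-high capillary endothelium, at 57.8, 76.0 and 70.9 CPM in the controls and 117, 186, 117 and 96.6 CPM in Smad4iko (edgeR adjusted p = 0.311). Among lower members the smallest were Prc1 (a midzone crosslinker) and Stmn1 in neutrophils and Ccnb2 (cyclin B2) in type 1 dendritic cells. Prc1 stood at 3.24, 4.30 and 13.01 CPM against 1.63, 3.46, 1.66 and 3.45 CPM, and Stmn1 at 21.6, 39.5 and 6.64 CPM against 8.71, 8.85, 8.99 and 4.98 CPM. Ccnb2 stood at 16.8, 33.6 and 10.4 CPM against 4.62, 9.06, 14.6 and 9.74 CPM. Without the filter, edgeR also called 3 members in B cells. Pclaf stood there at 0, 1.70 and 0 CPM against 0.531, 3.44, 33.1 and 13.3 CPM, Rrm2 at 0.595, 0.283 and 0 CPM against 2.66, 1.06, 16.8 and 7.97 CPM and Tyms at 0, 2.27 and 2.55 CPM against 1.59, 3.44, 7.04 and 14.6 CPM, with the highest values in Smad4iko 3 and 4. Prc1, Stmn1 and Ccnb2 overlapped between the groups, with edgeR adjusted p of 0.503, 0.572 and 0.999. In the sums over whole libraries, where fewer cells of a type and less RNA per cell cannot be told apart, 0 of 40 members were called by edgeR's adjusted p; 1 (Stmn1, lower) had an unadjusted p under 0.05, against 5.29% of 16157 genes, and DESeq2 called 0.

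Trdc+ T cells had no cycling cell in the 3 controls and some in each of the 4 Smad4iko libraries. They were T cells with a UMI of Trdc, the T cell receptor delta constant gene, and none of Cd4, Cd8a or Cd8b1, a group that holds gamma-delta T cells. The T cell subsets were added, and this one singled out, after values of these data had been seen. Cycling cells numbered 0 of 32, 0 of 88 and 0 of 117 in Smad4fl/fl 1 to 3, for which a floor of 3 counts of each total allows shares of up to 9.38%, 3.41% and 2.56%; the exact 95% binomial upper limits are 10.9%, 4.11% and 3.10%. They numbered 21 of 154 (13.6%), 9 of 77 (11.7%), 15 of 200 (7.50%) and 10 of 260 (3.85%) in Smad4iko 1 to 4. The groups did not overlap, but exact permutation (two-sided) gave p = 0.0571, a p above the threshold, and 0.314 adjusted over the 8 classes and 3 subsets. The share therefore did not pass the test. Thinned to 2000 UMIs, the Smad4iko shares were 3.92%, 7.79%, 3.52% and 1.54%, with 0 in each control.

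In the rest of the T cells the shares of the groups overlapped, at 1.43%, 1.19% and 1.62% in the controls and 1.93%, 0.800%, 2.12% and 1.77% in Smad4iko (exact permutation p = 0.571). The difference between the 2 genotype effects, 8.92 percentage points, had an exact permutation p of 0.0571. Regulatory (CD4+ Foxp3+) T cells cycled in both genotypes, from 7.81% to 21.2% in the controls and from 8.70% to 27.6% in Smad4iko, with 23 to 64 cells a library. The CD4+ Foxp3- and CD8+ subsets had 0 members called by edgeR and 2 at an unadjusted p under 0.05, where 5.42% of genes were at that level. Their shares differed by 0.61 and -0.25 percentage points (exact permutation p = 0.371 and 0.714).

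Summed UMIs of Trdc+ T cells gave member calls under the same filter on low counts that gave none in the 8 classes. edgeR called 20 of the 31 members tested, all higher in Smad4iko, where 7.58% of all 7088 tested genes were called in either direction. The 4 gate genes are among the 20 and define the share for which these cells were singled out, so their calls restate it; of the other 27 members tested 16 were called. Members rise together in cycling cells, so these calls are not independent of that choice either. Members that pass the filter on low counts only through the high group had to differ, so the count over all 40 without that filter is given as well: 31 were called, against 6.93% of 15046 genes. In that fit the edgeR adjusted p of called members was far smaller, at 1.54e-55 for Pclaf. Hmgb2, at a log2 fold change of 1.60 ± 0.19 SE, had an unadjusted edgeR p of 9.38e-17. This is about what a normal distribution gives for that ratio, so the number of mice does not limit these p-values. The calls without the filter are therefore a description, and why the fits differ was not tested. Cdc6, Aurkb and Bub1b were among those called that way, with 0 control UMIs each and 62 UMIs or fewer over Smad4iko. Among the tested replication genes Pclaf rose from 0, 0 and 1.15 CPM to 231, 334, 181 and 72.9 CPM (edgeR adjusted p = 0.00120). Rrm2 rose from 0, 0 and 4.61 CPM to 103, 137, 65.0 and 43.8 CPM (adjusted p = 0.00304). Tyms rose too, at 5.50, 4.33 and 1.15 CPM against 40.6, 53.7, 19.6 and 22.5 CPM, and Tk1, at 0, 2.16 and 0 CPM against 22.2, 25.4, 15.9 and 5.33 CPM, so 4 of 6 genes of the fork and nucleotide supply were called; Pcna, at 242, 223 and 189 CPM against 246, 277, 196 and 149 CPM, and Rrm1 were not. With the filter none of the 6 tested licensing genes was called, and all 6 fold changes were positive. Without it Mcm5, Mcm6 and Cdc6 were called (edgeR adjusted p = 0.0205, 0.0321 and 0.00074), so the difference between licensing and fork genes depends on the filter.

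The gate genes are given as a description. Top2a stood at 0, 4.33 and 2.31 CPM against 198, 266, 104 and 78.2 CPM and Mki67 at 5.50, 0 and 5.76 CPM against 119, 115, 63.5 and 49.2 CPM. Ube2c stood at 0, 4.33 and 2.31 CPM against 69.7, 178, 96.7 and 45.01 CPM and Birc5 at 0, 0 and 2.31 CPM against 77.4, 161, 58.2 and 34.9 CPM. Mitotic genes outside the gate were called too. Ccna2, Ccnb2 and Tpx2 (an Aurora A activator) had 0 UMIs in the controls and were at least 12.0-fold, 16.4-fold and 8.99-fold higher, against a floor of 3 UMIs over the control group. In Smad4iko 1 to 4 Ccna2 stood at 29.1, 50.7, 18.1 and 13.6 CPM, Ccnb2 at 29.1, 46.2, 50.6 and 15.4 CPM, and Tpx2 at 16.1, 20.9, 24.2 and 13.03 CPM.

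The kinase Cdk1 rose too, at 5.50, 0 and 2.31 CPM against 39.1, 53.7, 27.96 and 17.8 CPM, as did Cks1b, at 5.50, 10.8 and 3.46 CPM against 65.9, 122, 59.7 and 45.01 CPM. The motor Kif11 stood at 0, 0 and 2.31 CPM against 29.1, 35.8, 20.4 and 17.2 CPM and the microtubule binder Nusap1 at 0, 6.49 and 0 CPM against 42.9, 62.6, 36.3 and 20.1 CPM, both called. The midzone and kinetochore genes Prc1, Cenpe and Cenpf were called as well. Prc1 stood at 11.00, 0 and 3.46 CPM against 26.8, 34.3, 18.9 and 23.7 CPM, Cenpe at 16.5, 0 and 0 CPM against 10.7, 25.4, 21.2 and 21.9 CPM and Cenpf at 0, 2.16 and 2.31 CPM against 28.3, 44.7, 25.7 and 14.2 CPM. The lowest library of the Smad4iko group was often Smad4iko 4, which also had the lowest cycling share. For each of the called members except Cenpe, all 4 Smad4iko libraries lay above all 3 controls; for Cenpe 3 did.

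Hmgb2 had many UMIs in the controls, so its change is measured and not set by a floor. Stmn1 was detected in each control, but with few UMIs in Smad4fl/fl 1. Hmgb2 stood at 754, 666 and 601 CPM in the controls and 1918, 2379, 1702 and 1192 CPM in Smad4iko (log2 fold change 1.54 ± 0.22 SE, edgeR adjusted p = 0.00386). Stmn1 stood at 16.5, 69.2 and 31.1 CPM against 242, 497, 167 and 70.5 CPM (2.61 ± 0.62, adjusted p = 0.0254), with the lowest Smad4iko library next to the highest control. Cenpa and Cks2, which were abundant in resting cells, were not called with the filter, with log2 fold changes of 0.09 ± 0.25 and 0.70 ± 0.24 (SE). Without it Cks2 was called (0.75 ± 0.24, edgeR adjusted p = 0.0325) and Cenpa was not.

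**Figure D4:**
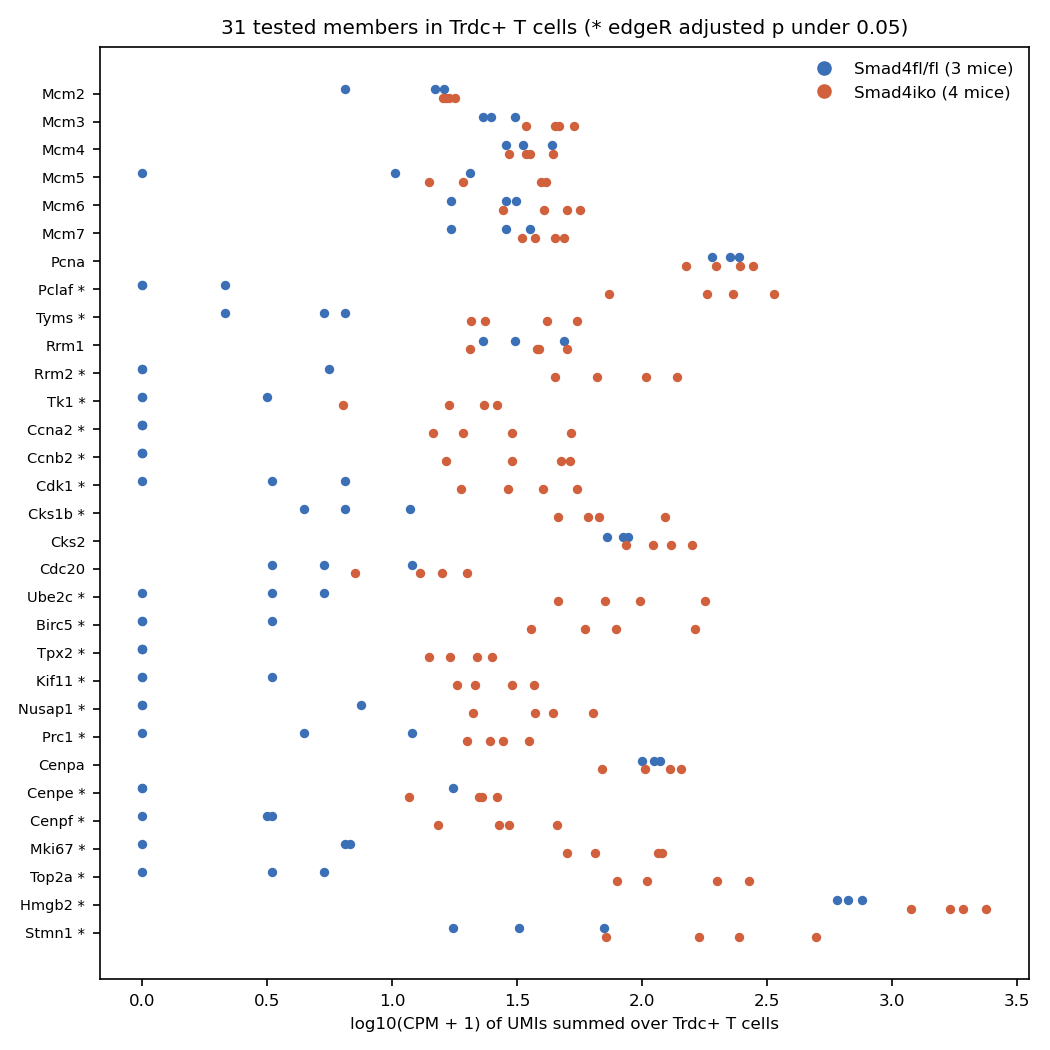
Level of the 31 tested members (x axis, log10 of CPM + 1) in Trdc+ T cells of each library, Smad4fl/fl in blue and Smad4iko in orange, with an asterisk on the 20 called by edgeR. Pclaf, Top2a and Hmgb2 separate the groups, while Pcna and Cenpa overlap.

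Other values moved with the Trdc+ result. Trdc+ cells made up 2.61%, 4.02% and 5.60% of the T cells in the controls and 8.28%, 5.80%, 10.02% and 11.6% in Smad4iko, shares that did not overlap. Smad4 itself was lower in these cells, at 116, 123 and 93.4 CPM in the controls and 42.9, 31.3, 43.8 and 51.5 CPM in Smad4iko (log2 fold change -1.22 ± 0.23 SE, edgeR adjusted p = 0.0095). The summed level of 6 genes of naive and recirculating T cells was 1661 to 2358 CPM in the controls and 1022 to 1325 CPM in Smad4iko; Ccr7, the lymph node homing receptor, stood at 174 to 359 and 36.1 to 91.1 CPM. The summed level of 8 genes of interleukin-17-producing gamma-delta T cells was 930 to 2034 and 1851 to 2523 CPM. The neutrophil marker S100a8 stood at 0 to 18.4 and 39.1 to 130 CPM, and the sum of 6 macrophage, neutrophil, B and NK markers at 33.0 to 57.6 and 74.3 to 145 CPM. Of those 6 markers only S100a8 separated the groups. The others overlapped, and Ear1, Ncr1 and Eomes were highest in a control. These lists were chosen with values of these data known, and the part of these values in the result was not tested. Among the cells with a UMI of Cd163l1, a scavenger receptor gene of interleukin-17-producing gamma-delta T cells, 0 of 11, 18 and 48 cycled in the controls and 14.3%, 16.7%, 11.3% and 4.19% of 56, 42, 106 and 167 in Smad4iko. Among those without it, 0 of 21, 70 and 69 cycled in the controls and 13.3%, 5.71%, 3.19% and 3.23% of 98, 35, 94 and 93 in Smad4iko. Among those without a UMI of Trac, the alpha chain constant gene, the Smad4iko shares were 14.6%, 6.98%, 3.31% and 3.70%, with 0 in each control.

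Further lists held the regulators around these genes. Of 7 CDK inhibitors, 6 D cyclins and G1 kinases and 14 pocket proteins and transcription factors, edgeR called 0 in each of the 8 classes and in the library sums. In Trdc+ T cells E2f2 was called higher (log2 fold change 2.08 ± 0.46 SE, edgeR adjusted p = 0.0202), 1 of 6 tested transcription factors and pocket proteins. Cdkn2c, a CDK inhibitor, did not pass there (1.37 ± 0.44, edgeR adjusted p = 0.0799). At an unadjusted p under 0.05 in edgeR, Cdk6, E2f2 and Myc were higher in T cells, with adjusted p of 0.299, 0.360 and 0.479.

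The ratio of S list to G2/M list transcripts varied by class, and its level depended on Hmgb2 and Cks2. The log2 ratio of summed S list to summed G2/M list UMIs averaged -0.73 ± 0.22 (SD, n = 3) in control and -0.69 ± 0.17 (n = 4) in Smad4iko alveolar macrophages (exact permutation p = 0.771). In T cells it averaged -1.29 ± 0.17 and -1.51 ± 0.17 (exact permutation p = 0.229, adjusted 0.857 over 8 classes). Without Hmgb2 and Cks2, both G2/M list genes, the control means were 0.09 in alveolar macrophages and 0.64 in T cells, which reversed their order. Levels of the ratio are therefore not read as a balance of phases between classes. With the whole lists, neutrophils were lowest, at -3.74 ± 1.20 and -4.78 ± 0.30, the class with the most Hmgb2. In Trdc+ T cells all 4 Smad4iko libraries, at -1.65, -1.74, -1.75 and -1.86, lay below the controls at -1.38, -1.01 and -1.17 (exact permutation p = 0.0286, the smallest this design allows, and 0.157 adjusted over the classes and subsets). All 4 gate genes are in the G2/M list, so part of this restates the choice of these cells. Without the gate genes the difference moved from -0.56 to -0.35, and without Hmgb2 and Cks2 to -1.49. Over all kept cells the ratio was also lower in all 4 Smad4iko libraries, by -0.40 (exact permutation p = 0.0286), but without Hmgb2 and Cks2 the difference was -0.08 (exact permutation p = 0.600). In CD8+ T cells the difference was -0.26 (exact permutation p = 0.0286, 0.157 adjusted), -0.28 without Hmgb2 and Cks2 (p = 0.400) and -0.25 without the gate genes (p = 0.0857). No class or subset passed the adjusted threshold.

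**Figure D5:**
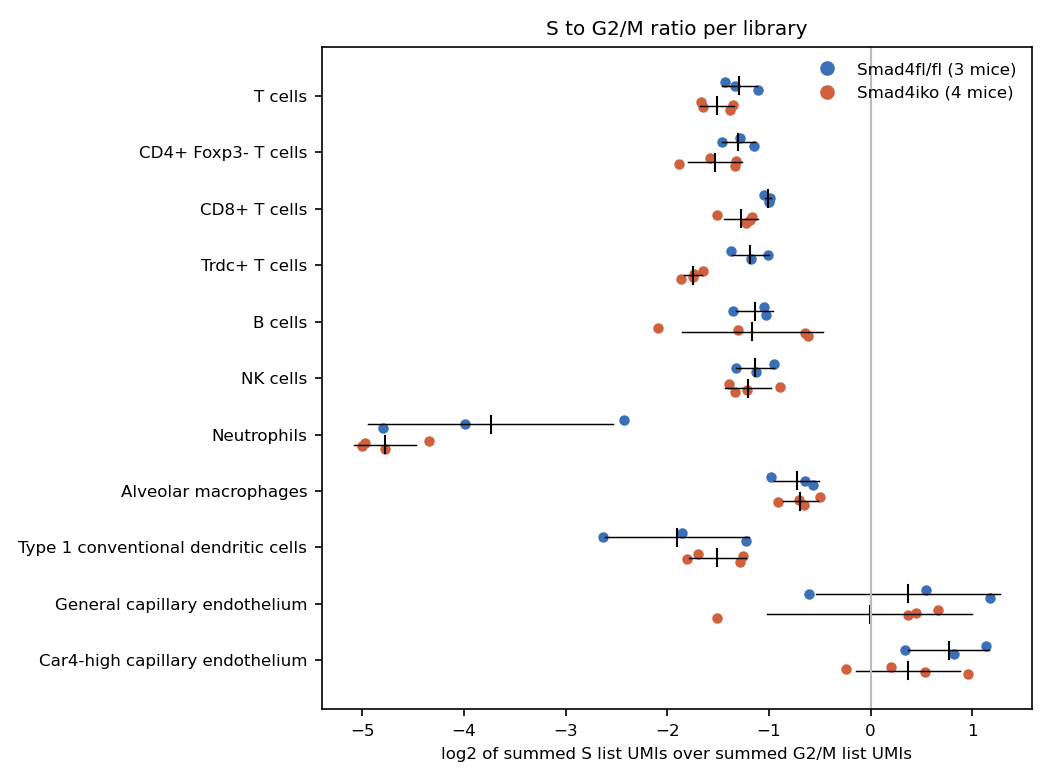
Log2 ratio of summed S list to summed G2/M list UMIs (x axis) in each library, by class, with group means as ticks and 1 SD as lines. Neutrophils lie lowest, the capillary classes highest, and of the 11 classes and subsets drawn, the groups separate in CD8+ and Trdc+ T cells, neither past the adjusted threshold.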

How the data were processed

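Lung cells of 3 Smad4fl/fl and 4 Smad4iko mice, 1 library a mouse, were analysed. The authors deposited raw counts (UMIs of each gene in each barcode) written by Cell Ranger 6.1.1 per the file headers; the submitters' processing notes name fastp, UMI-tools and mm10. Cells with at least 300 genes, 600 UMIs and at most 20% mitochondrial UMIs were kept (50955 of 55671), and Scrublet in scanpy 1.11.5 removed 1244 doublets (2.44%). A cell took the class with at least 3 of 6 markers detected and 2 more than any other class. UMIs were summed per library and class, and edgeR 4.0.16 tested genes passing its expression filter with TMM scaling; DESeq2 1.42.0 was an alternative. The fit was tested on data simulated from T cells and alveolar macrophages, and not from Trdc+ T cells. Shares were compared by exact permutation over mice, so the mouse was the replicate in those tests. Members, lists and subsets were chosen with earlier results of these data known. Values per library are given for the gate genes, the members called with the filter, the 2 most abundant of each role in alveolar macrophages and the 3 smallest p in each direction. Coordinates are mm10; promoters are from RefSeq. Free RNA was not removed. The retrogene Cks1brt is in the feature table and may share reads with Cks1b.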

Additional observations from a re-analysis of the deposited data

Results flagged for a closer look

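General capillary endothelium of Smad4iko 4 held 14 cycling cells of 212, a share of 6.60%, far from the other 3 Smad4iko libraries at 0.481%, 0% and 0%. The controls stood at 0.161%, 1.28% and 0%. Dixon's test flagged it among 14 sets of 4 libraries looked at, and chance flags about 1 in 20. The 14 cells had a median of 18002 UMIs against 5344 in the other 198. They held the capillary markers Gpihbp1 and Cd93 at 1253 and 1971 CPM, against 1503 and 2164 CPM in the other cells, and the leukocyte gene Ptprc at 6.83 CPM. Rrm2 stood at 174 CPM and Cdk1 at 249 CPM in them, against 3.00 and 1.50 CPM. Without a second library of this kind, the mouse and the library cannot be told apart.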

How the results depend on the processing

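No member was called in the 8 classes under DESeq2, another scaling, a covariate for Smad4iko 3 and 4, kept doublets, a stricter gate or the loss of any 1 library. Without the filter on low counts 4 were called: Pclaf, Rrm2 and Tyms in B cells, with most of their UMIs in Smad4iko 3 and 4, and Hmgb2 in Car4-high capillary endothelium. In Trdc+ T cells 20 members became 31 without the filter and 15 to 19 without 1 library. The p-values of these calls without the filter are not limited by the number of mice, so the calls are a description. The Trdc+ share stayed at p of 0.0571 or above in every exact permutation test run, with differences of 7.68 to 10.9 percentage points without 1 library. The difference in the share over all cells, 0.15 percentage points, ran from -0.12 (without Smad4iko 1) to 0.45 without 1 library. The S to G2/M difference of alveolar macrophages changed sign, to -0.0125 without the gate genes, and ran from -0.0898 to 0.117 without 1 library, with the negative values without Smad4fl/fl 1 and Smad4iko 1. That of T cells was 0.21 in cycling cells only. In each of these the cause was not tested. The labels share replicate numbers, and deviations of same-numbered libraries correlated at 0.55, -0.20 and 0.49. Libraries with different numbers were not compared, so these values cannot tell whether the numbers pair the mice. With a replicate block the counts of calls were again 0 in the classes and 20 in Trdc+ T cells, and the differences in share were 0.01 (all cells), -1.22 (alveolar macrophages), 0.98 (T cells) and 10.9 (Trdc+) percentage points; 3 pairs cannot give an exact permutation p under 0.25. Thin classes limit the depth: several controls had 0 UMIs of a member.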
